A study of Saccharomyces cerevisiae with 16 samples.

Results

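The genes described here are 49 meiosis and sporulation genes of budding yeast, Saccharomyces cerevisiae, taken by symbol from a list described as normally silent in growing haploid cells. All 49 of the listed genes were on the array, with 1 probe each, among 5311 named genes. The list was split into 6 regulators, 21 genes mostly of meiotic recombination and chromosome synapsis, and 22 genes mostly of spore formation. These classes are broad and are named for most of their members, not for each one. The question asked of them was whether these genes are switched on when the transcription factor Mot1 leaves the nucleus. Not every member was near silent here: the median signal was 24.3 times background in RIM11 and 19.0 times in IME1.

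Set against the change in the parent strain, 6 of the 49 genes rose and 1 fell after 30 min of depletion. Of all genes, 13.6% and 7.53% did. The largest such rise was 1.84-fold, in SGA1. REC104, among the 6, had no called change from 0 min within the depleted strain itself. SGA1, RIM4, SMK1 and SPS4 rose most, while the inducers IME1, IME2 and NDT80 gave no called rise or fall by this measure. IME1 was called higher in the depleted strain than in its parent at 30 min. It read higher there before rapamycin too, without being called.

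The study read new RNA on 16 two-colour arrays, 2 for each of 8 combinations of strain and time. WT-aa is the parental anchor-away strain and Mot1-aa carries in addition a Mot1-FRB-yEGFP-3V5 fusion. Both are MATalpha haploids of By4742 background with tor1-1, an FPR1 deletion, an RPL13A-FKBP12-NAT fusion, MET15, his3-1, leu2, lys2 and ura3. Rapamycin bridges FRB to FKBP12 on the ribosomal protein Rpl13A, so that Mot1-FRB is carried out of the nucleus, and tor1-1 with the loss of FPR1 makes growth insensitive to the drug. The medium was synthetic complete with 2% glucose, and rapamycin was added at 7.5 µM for 10, 20 or 30 min, or left out in the 0 min groups. In all 8 groups, 4-thiouracil (4tU) at 5 mM marked the RNA made in the last 6 min. The 4tU-labelled RNA was hybridised against a pool of 4tU-labelled RNA from WT-aa cultures without rapamycin. Each group was 2 independent cultures on separate arrays with exchanged dyes, called culture 1 and culture 2 here and always given in that order. The parent has no FRB tag, so a strain difference before rapamycin also holds the tag and anything else that sets the strains apart. The labels do not say whether the 4 times of a strain share a culture, or whether each strain is 1 clone.

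Meiosis in budding yeast normally starts in starved diploid cells that express both mating types. Ime1 then converts the Ume6 repressor complex, which holds the histone deacetylase Rpd3, into an activator of early genes, the kinase Ime2 promotes the programme, and the transcription factor Ndt80 turns on middle genes that the repressor Sum1 keeps silent. In haploid cells Rme1 represses IME1, and glucose also keeps IME1 low. Mot1 is an ATPase that takes the TATA-binding protein off DNA, and is known both to repress and to support transcription in yeast.

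The mating type of the labels was set beside its markers. All 4 alpha-cell markers were above the negative spots on every array, with a summed signal of 872 to 1912 times background. Of the 7 a-cell markers, 6 or 7 were above them too, with a summed signal of 16.8 to 31.9 times background per array. The 11 haploid-specific genes, which are off in diploids, were above the negative spots on every array. MOT1 new RNA lay between -0.091 and 0.29 on the log2 scale in WT-aa and between -2.31 and 0.61 in Mot1-aa, with the 2 cultures of Mot1-aa apart by more than 1 unit at 0 and 10 min. Since the anchor moves the Mot1 protein, this RNA does not check the depletion. The Mot1-aa 0 min array of culture 1 stood apart in brightness: the median gene was 12.9 times background there and 24.7 to 35.6 times on the other 15 arrays. The Mot1-aa 30 min array of culture 2 had the brightest negative spots, with a 99th percentile of 101.4 intensity units against 50.9 to 65.2 elsewhere.

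Most of the meiosis genes gave a dim signal in both strains. Over the 16 arrays the median member was 2.87 times its local background, with quartiles of 1.81 and 5.02, while the median gene of the array was 29.8 times, with quartiles of 14.0 and 59.1. Of the 49 members, 47 (95.9%) lay in the dimmest 25% of genes and none reached the median gene. The 4 brightest were RIM11, the kinase that phosphorylates Ime1 and Ume6, at 24.3 times background, IME1 at 19.0, ZIP1, a component of the synaptonemal complex, at 10.8, and IME2 at 10.4. A weak signal was still there for many: 32 members (65.3%) exceeded the 99th percentile of the 904 negative spots on all 16 arrays, against 94.6% of all genes. How much of so weak a signal is cross-hybridisation was not tested. No source used here gives the strand that a probe reads, so sense and antisense RNA could not be told apart.

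All 49 genes were above the negative spots on at least 1 of the 2 WT-aa 0 min arrays, so setting WT-aa at 0 min against Mot1-aa at 30 min could not show a gene rising past that level on both arrays. Dim genes crossed it between groups in either direction. SPS2, a spore wall gene, was above on 0 of 2 WT-aa arrays and 2 of 2 Mot1-aa arrays at 20 min, with a median signal of 1.20 times background and an uncalled depletion effect of -0.043 at that time, adjusted p = 0.866 by limma. SPO1, a phospholipase-like gene of spore membrane formation, was above on both WT-aa 0 min arrays and below on both Mot1-aa 30 min arrays. Its sample signal was 2.79 and 2.30 times background in the former and 1.59 and 1.61 times in the latter, and limma gave it an uncalled effect of depletion at 30 min, -0.18 ± 0.14 (SE) with an adjusted p of 0.388. The raised negative spots of 1 of those Mot1-aa 30 min arrays apply to that crossing.

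**Figure D1:**
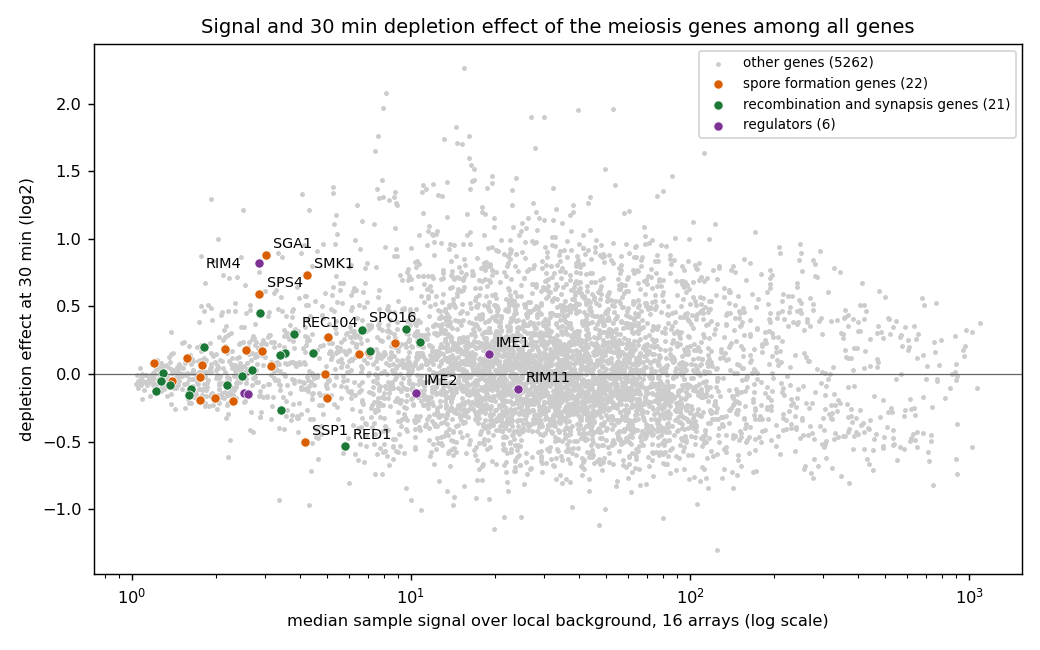
Median sample signal over local background (x, log scale, 16 arrays) against the depletion effect at 30 min (y, log2) for all 5311 genes, with the 49 meiosis and sporulation genes in colour by class. The members lie at the dim end, with a median of 2.87 times background against 29.8 for all genes, and SGA1, RIM4, SMK1 and SPS4 stand highest among them.

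The depletion effect of a gene was defined as its change from 0 min in Mot1-aa minus its change over the same time in WT-aa, on the scale of log2(sample/reference). It takes away what rapamycin did in the parent and what set the strains apart beforehand. A gene was called at an adjusted p under 0.05 in limma's moderated test, with Benjamini-Hochberg adjustment over all 5311 genes.

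At 10 min 0 of the 49 members were called and 0% of all genes. The 2 Mot1-aa 10 min arrays agreed least with the fit. Array weights, which scale each array by that agreement, were 0.148 for each of them and 0.605 to 3.3 for the rest. The absence of calls at 10 min therefore does not show that nothing changed. At an unadjusted p under 0.05 there were 1 member, SGA1, and 224 of all 5311 genes. At 20 min SGA1, SMK1 and SPS4 rose, where 7% of all genes did, and RED1 fell, where 1.02% did. At 30 min RIM4, SPO16 and REC104 were called higher as well. That made 6 of 49 members (12.2%) called higher against 13.6% of all genes. RED1 alone (2.04%) was called lower against 7.53%. Counting both directions, 14.3% of members and 21.1% of all genes were called at 30 min. Without the dim Mot1-aa 0 min array, fewer members were called at 20 and 30 min, and fewer of all genes. That fit leaves 1 array in the group. The median member effect was then 0.0057 at 20 min and 0.043 at 30 min, beside -0.0011 and 0.0016 over all genes. At 20 and 30 min, leaving out either Mot1-aa 10 min array raised the calls over all genes as well as among the members. The median member effect at those times does not use the 10 min arrays, so it could not change. The median effect over the 49 members was 0.013 at 20 min and 0.068 at 30 min, beside 0.0053 and 0.0074 over all genes. When arrays were centred on their median in place of loess, the member medians turned negative, to -0.29 and -0.094. The medians over all genes were then -0.012 and -0.062. At 30 min the effect was above 0 in 28 members and below 0 in 21.

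The shares differed with brightness. Among genes under 2 times background, 3.93% of the 229 genes on the array were called higher at 30 min and none of the 14 members. Between 2 and 5 times, 12% of 357 genes and 5 of 22 members were called higher. Between 5 and 10 times, 1 of 9 members rose and 1 fell, where 14.6% and 7.18% of 390 genes did. None of the 4 members over 10 times background was called, where 14.1% rose and 8.37% fell.

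Changes stayed small in size. The upper end of the 95% interval lay under 2-fold for 46 of the 49 members, the exceptions being RIM4, SGA1 and SMK1. The offset of 50 intensity units added in the background correction pulls the ratios of dim spots towards 0, so these folds are understated for dim genes. With an offset of 10, SGA1 came to 1.11 and RIM4 to 0.98 on the log2 scale, in place of 0.88 and 0.82.

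**Figure D2:**
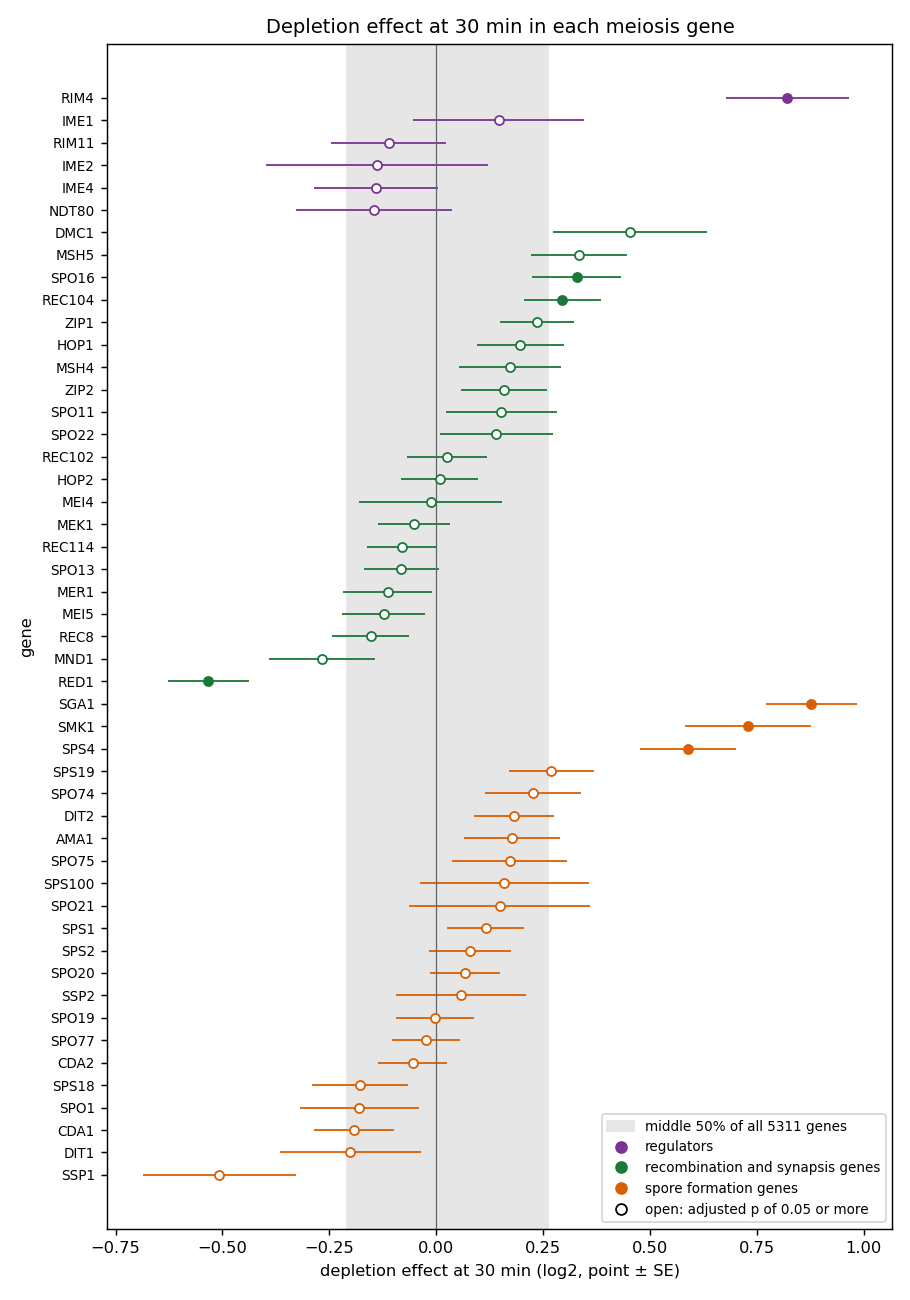
Depletion effect at 30 min (x, log2, points with SE bars) of each of the 49 genes (y), ordered within the 3 classes. Filled points are the 7 called genes, the open points have an adjusted p of 0.05 or more, and the grey band spans the middle 50% of all 5311 genes; 6 filled points lie to the right of 0 and RED1 lies to the left.

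Among the 6 regulators, only RIM4 was called in the depletion effect at 30 min, where 21.1% of all genes were. RIM4 (YHL024W) encodes an RNA-binding protein that holds back the translation of meiotic messages. RIM4 in WT-aa read -0.23 and -0.0087 at 0 min, 0.0094 and -0.041 at 10 min, -0.03 and -0.026 at 20 min, and -0.015 and -0.081 at 30 min. In Mot1-aa RIM4 read 0.34 and 0.14 at 0 min, 0.49 and 0.46 at 10 min, 0.79 and 0.83 at 20 min, and 1.26 and 1.00 at 30 min. All Mot1-aa arrays lay above all WT-aa arrays, before rapamycin too, and the distance widened with time. Its sample signal went from 2.42 and 2.87 times background at 0 min to 6.78 and 5.29 times at 30 min in Mot1-aa, and was 3.13 and 2.33 times at 30 min in WT-aa. The depletion effect on RIM4 was 0.82 ± 0.14 (SE) at 30 min, or 1.77-fold, with an adjusted p of 0.00328 by limma, and 0.48 at 20 min with an adjusted p of 0.0695. The strain difference before rapamycin was 0.36, adjusted p = 0.111, and the strain difference at 30 min was 1.18, adjusted p = 7.23e-06.

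IME1 (YJR094C), the master inducer, read higher in the Mot1-aa arrays at all 4 times and gave no called depletion effect. IME1 in WT-aa read 0.055 and -0.28 at 0 min, 0.073 and 0.0055 at 10 min, -0.019 and -0.0087 at 20 min, and 0.016 and -0.20 at 30 min. In Mot1-aa IME1 read 0.57 and 0.31 at 0 min, 0.23 and 0.59 at 10 min, 0.51 and 0.66 at 20 min, and 0.65 and 0.56 at 30 min. The 2 strains did not overlap on any array. The strain difference was 0.55 ± 0.14 (SE) at 0 min, with an adjusted p of 0.0785, and 0.70, or 1.62-fold, at 30 min with an adjusted p of 0.00233 (limma). The 0 min difference turned to -0.092 when arrays were scaled on their external control spots, and it ranged up to 0.71 in the other settings. It passed the threshold in 3 of 25 alternative settings. The depletion effect on IME1 at 30 min was 0.15, adjusted p = 0.633, with a 95% interval from 0.814-fold to 1.50-fold. Its signal was 14.2 to 22.2 times background on the 16 arrays.

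IME2 (YJL106W), the meiotic kinase downstream of Ime1, gave no called depletion effect. IME2 in WT-aa read 0.18 and -0.12 at 0 min, 0.25 and 0.32 at 10 min, 0.40 and 0.12 at 20 min, and 0.41 and 0.47 at 30 min. In Mot1-aa IME2 read 0.051 and 0.20 at 0 min, 0.10 and 0.76 at 10 min, 0.48 and 0.32 at 20 min, and 0.44 and 0.36 at 30 min. The strains overlapped at each time, and the change from 0 to 30 min was called in neither (0.41 in WT-aa, adjusted p = 0.568; 0.27 in Mot1-aa, adjusted p = 0.254). The depletion effect at 30 min was -0.14, adjusted p = 0.729 by limma, with a 95% interval from 0.61-fold to 1.35-fold. It came to 0.16 from the culture 1 arrays alone and to -0.43 from the culture 2 arrays alone.

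NDT80 (YHR124W), the switch to middle genes, gave no called change. NDT80 in WT-aa read 0.21 and -0.21 at 0 min, -0.0084 and -0.16 at 10 min, 0.03 and -0.10 at 20 min, and 0.073 and -0.057 at 30 min. In Mot1-aa NDT80 read 0.15 and -0.0038 at 0 min, -0.18 and 0.13 at 10 min, 0.078 and -0.18 at 20 min, and -0.0086 and -0.12 at 30 min. The strains overlapped at each time, and the 30 min depletion effect was -0.15, adjusted p = 0.599, with a 95% interval from 0.684-fold to 1.19-fold at a median signal of 2.62 times background.

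IME4 (YGL192W), a methyltransferase of messenger RNA, and RIM11 (YMR139W) gave no called depletion effect either. IME4 in WT-aa read 0.16 and -0.28 at 0 min, 0.11 and -0.20 at 10 min, 0.19 and -0.14 at 20 min, and 0.15 and -0.079 at 30 min. In Mot1-aa IME4 read 0.30 and -0.069 at 0 min, 0.08 and 0.081 at 10 min, 0.34 and -0.15 at 20 min, and 0.17 and -0.043 at 30 min. Culture 1, with the sample in Cy3, read higher than culture 2 in 7 of the 8 groups, and the effect of depletion on IME4 at 30 min was -0.14, adjusted p = 0.52. Haploid cells make an antisense RNA over IME4, which these probes may or may not read.

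RIM11 in WT-aa read -0.30 and -0.05 at 0 min, -0.17 and -0.0063 at 10 min, -0.12 and 0.043 at 20 min, and -0.095 and -0.11 at 30 min. In Mot1-aa RIM11 read -0.51 and -0.23 at 0 min, -0.18 and -0.30 at 10 min, -0.46 and -0.27 at 20 min, and -0.44 and -0.38 at 30 min. It was lower in Mot1-aa at 30 min by the strain difference of -0.31, adjusted p = 0.0208, while its depletion effect was -0.11, adjusted p = 0.59.

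**Figure D3:**
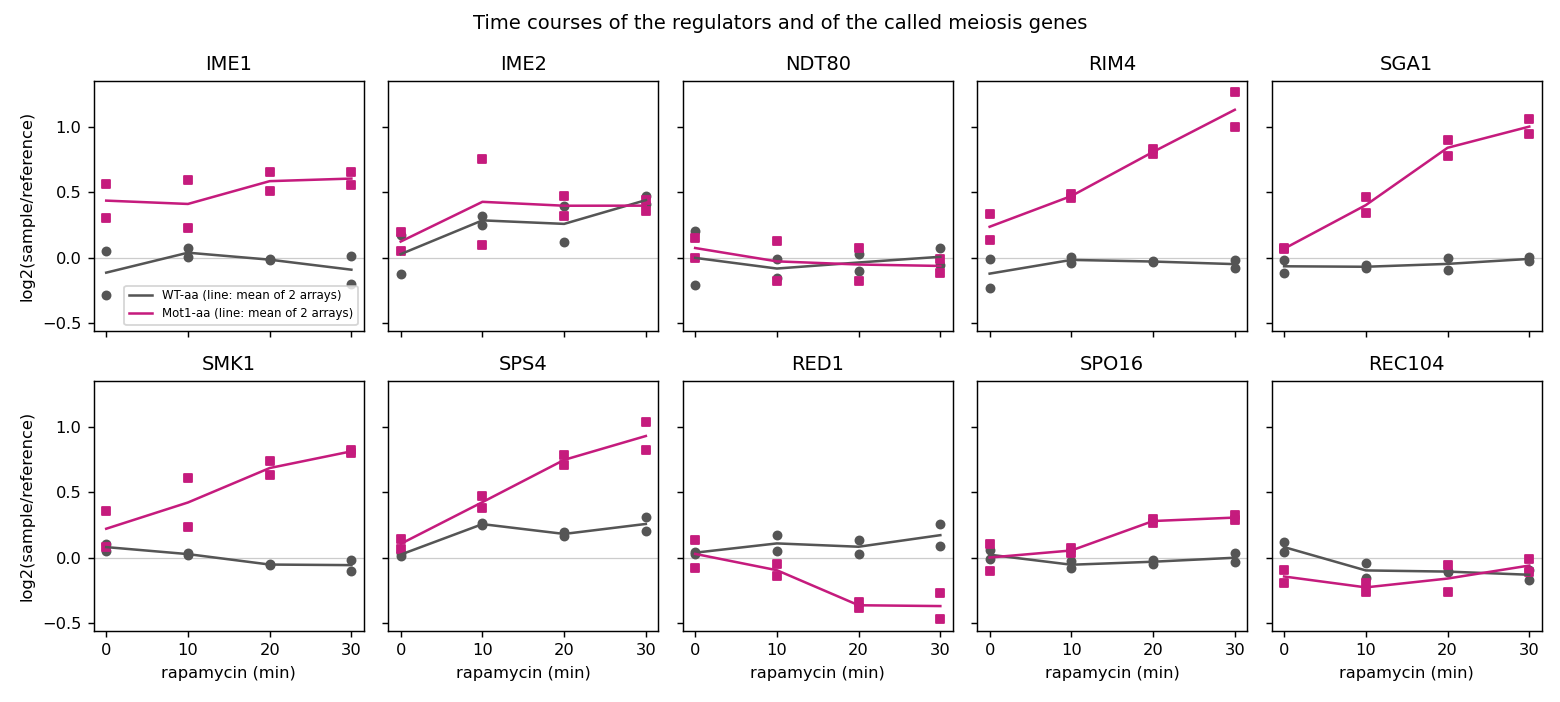
Log2(sample/reference) (y) against minutes of rapamycin (x) for 3 regulators and the 7 called genes, with circles for WT-aa arrays, squares for Mot1-aa arrays and lines through the means of 2 arrays. RIM4, SGA1, SMK1 and SPS4 climb in Mot1-aa and stay within 0.31 of the reference in WT-aa, RED1 falls in Mot1-aa, and IME1 is apart from the start.

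Of the 21 recombination and synapsis genes, SPO16 and REC104 (9.52%) were called higher at 30 min, RED1 (4.76%) was called lower and 18 were not called. Of all genes, 13.6% were called higher and 7.53% lower. The class median was 0.026, with a range from -0.53 in RED1 to 0.45 in DMC1.

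RED1 (YLR263W) encodes a protein of the axial element, the core along which meiotic chromosomes are organised. RED1 in WT-aa read 0.047 and 0.033 at 0 min, 0.17 and 0.049 at 10 min, 0.14 and 0.033 at 20 min, and 0.26 and 0.089 at 30 min. In Mot1-aa RED1 read 0.14 and -0.075 at 0 min, -0.047 and -0.14 at 10 min, -0.34 and -0.39 at 20 min, and -0.27 and -0.47 at 30 min. The strains overlapped at 0 min and were apart at the 3 later times, with every Mot1-aa array lower. The depletion effect was -0.44 at 20 min, adjusted p = 0.0201, and -0.53 ± 0.095 (SE) at 30 min, 1.45-fold lower, adjusted p = 0.00371 by limma. RED1's 20 min call missed the threshold in 9 of 25 other settings, 6 of them with 1 array left out.

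SPO16 (YHR153C), part of a complex that promotes crossovers and synapsis, showed a smaller rise. SPO16 in WT-aa read 0.057 and -0.008 at 0 min, -0.024 and -0.081 at 10 min, -0.046 and -0.013 at 20 min, and -0.031 and 0.034 at 30 min. In Mot1-aa SPO16 read -0.099 and 0.10 at 0 min, 0.079 and 0.034 at 10 min, 0.27 and 0.29 at 20 min, and 0.29 and 0.33 at 30 min. The groups did not overlap at 10, 20 or 30 min. The depletion effect was 0.33 ± 0.10 (SE), or 1.26-fold, at 30 min, adjusted p = 0.0467 (limma). It missed the threshold in 19 of 25 alternative settings, among them the one without the dim Mot1-aa 0 min array, where it was 0.23 with an adjusted p of 0.168.

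REC104 (YHR157W), a partner of the Spo11 enzyme that cuts meiotic chromosomes, was called although neither strain's own change passed the test. REC104 in WT-aa read 0.046 and 0.12 at 0 min, -0.15 and -0.042 at 10 min, -0.10 and -0.11 at 20 min, and -0.17 and -0.09 at 30 min. In Mot1-aa REC104 read -0.19 and -0.092 at 0 min, -0.26 and -0.19 at 10 min, -0.26 and -0.053 at 20 min, and -0.11 and -0.0084 at 30 min. WT-aa was the higher strain at 0 min and the 2 overlapped at 30 min. The depletion effect of 0.30 ± 0.09 (SE), adjusted p = 0.0411, was made of a change of 0.084 in Mot1-aa, adjusted p = 0.316, less one of -0.21 in WT-aa, adjusted p = 0.343. It too missed the threshold in 17 of 25 settings.

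Several other genes of the class came close without passing. The depletion effect at 30 min was 0.33 in MSH5, adjusted p = 0.0589, which stabilises crossover intermediates with Msh4. It was 0.24 in ZIP1, adjusted p = 0.0766, and 0.45 in DMC1, the meiotic strand-exchange protein, adjusted p = 0.0992. DMC1 in Mot1-aa read -0.069 and 0.41 at 10 min, where its 2 cultures lay apart by about the size of the 30 min effect. At 30 min they read 0.46 and 0.54. SPO11 gave 0.15, adjusted p = 0.429, and REC8, the meiotic cohesin subunit, gave -0.15, adjusted p = 0.253.

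Of the 22 spore formation genes, SGA1, SMK1 and SPS4 (13.6%) rose at 20 and at 30 min, none fell and 19 were not called at 30 min. Of all genes, 7% rose at 20 min and 13.6% at 30 min, and 1.02% and 7.53% fell. The class median was 0.097, with a range from -0.51 in SSP1 to 0.88 in SGA1.

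SGA1 (YIL099W) encodes the glucoamylase that breaks down glycogen during sporulation, and it had the largest effect of the 49. SGA1 in WT-aa read -0.11 and -0.017 at 0 min, -0.079 and -0.057 at 10 min, -0.0002 and -0.092 at 20 min, and -0.022 and 0.0063 at 30 min. In Mot1-aa SGA1 read 0.066 and 0.074 at 0 min, 0.34 and 0.47 at 10 min, 0.78 and 0.90 at 20 min, and 1.06 and 0.94 at 30 min. Each Mot1-aa array lay above all WT-aa arrays, and both cultures were higher at each later time. The signal went from 2.21 and 2.83 times background at 0 min to 5.55 and 5.22 times at 30 min in Mot1-aa. The depletion effect was 0.75 at 20 min, adjusted p = 0.00297, and 0.88 ± 0.11 (SE) at 30 min, 1.84-fold, adjusted p = 0.000462 (limma). SGA1 was the only member whose change within Mot1-aa was called at 10 min: it was 0.33, adjusted p = 0.0375, where 3.07% of all genes were called higher.

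SMK1 (YPR054W), the mitogen-activated kinase of spore wall assembly, rose at 20 and 30 min. SMK1 in WT-aa read 0.11 and 0.055 at 0 min, 0.035 and 0.022 at 10 min, -0.044 and -0.058 at 20 min, and -0.098 and -0.013 at 30 min. In Mot1-aa SMK1 read 0.087 and 0.36 at 0 min, 0.24 and 0.61 at 10 min, 0.63 and 0.74 at 20 min, and 0.83 and 0.80 at 30 min. The strains overlapped at 0 min only. The depletion effect was 0.60 at 20 min, adjusted p = 0.0347, and 0.73 ± 0.15 (SE) at 30 min, 1.66-fold, adjusted p = 0.00681 by limma. The 20 min call of SMK1 missed the threshold in 15 of 25 other settings, 12 of them with 1 array left out, where its adjusted p reached 0.169.

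SPS4 (YOR313C), a gene first found by its induction in sporulating cells, rose in Mot1-aa. SPS4 in WT-aa read 0.039 and 0.011 at 0 min, 0.26 and 0.25 at 10 min, 0.17 and 0.20 at 20 min, and 0.31 and 0.20 at 30 min. In Mot1-aa SPS4 read 0.068 and 0.15 at 0 min, 0.47 and 0.38 at 10 min, 0.71 and 0.79 at 20 min, and 1.04 and 0.82 at 30 min. Every Mot1-aa array was higher than both WT-aa arrays of its time. The change from 0 to 30 min was 0.23 in WT-aa, adjusted p = 0.392, and 0.82 in Mot1-aa, adjusted p = 2.34e-05. The depletion effect was 0.48 at 20 min, adjusted p = 0.027, and 0.59 ± 0.11 (SE) at 30 min, 1.50-fold, adjusted p = 0.00514 (limma). For SPS4 the 20 min call missed the threshold in 9 of 25 other settings, 6 of them with 1 array left out.

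The other spore genes spread around 0. SSP1, which encodes a coat protein of the growing spore membrane, gave -0.51, adjusted p = 0.0673, and SPS19, a peroxisomal enzyme, gave 0.27, adjusted p = 0.079. DIT1 and DIT2, which make the dityrosine of the outer spore wall, gave -0.20 and 0.18, adjusted p = 0.415 and 0.193. The chitin deacetylase genes CDA1 and CDA2 gave -0.19 and -0.055, adjusted p = 0.167 and 0.656. AMA1, the meiotic activator of the anaphase-promoting complex, gave 0.18, adjusted p = 0.287.

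**Figure D4:**
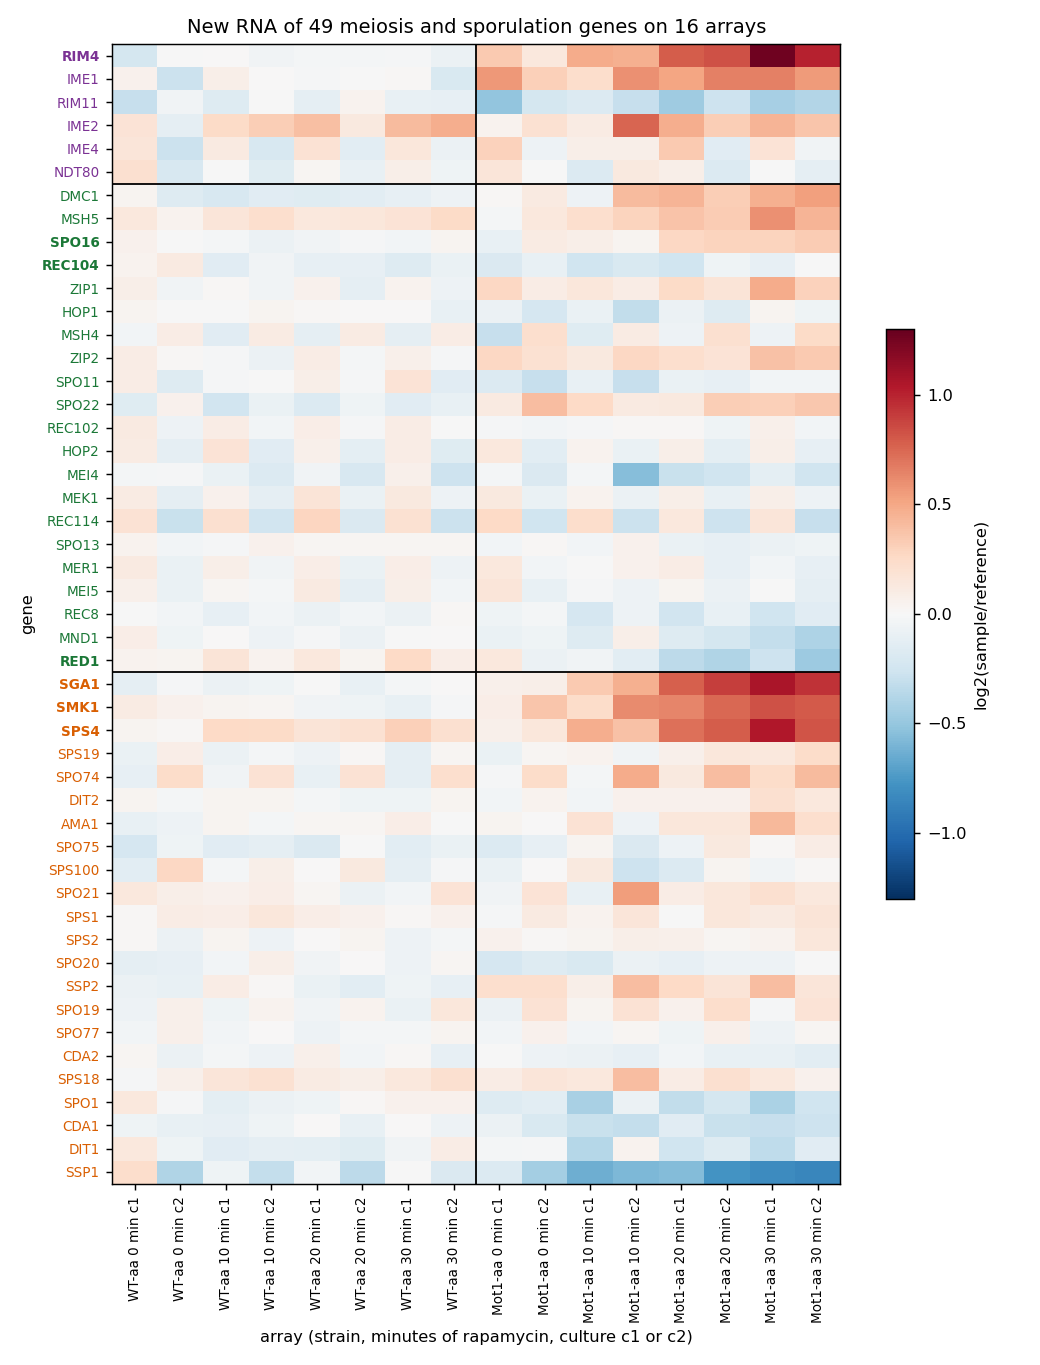
Log2(sample/reference) of the 49 genes (rows, ordered by the 30 min depletion effect within the 3 classes) on the 16 arrays (columns, culture 1 as c1 and culture 2 as c2), with red for higher and blue for lower than the reference and the 7 called genes in bold. The colour is deepest in the Mot1-aa columns at 20 and 30 min for RIM4, SGA1, SMK1 and SPS4, and most other rows stay pale.

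The parent alone gave no called meiosis gene. In WT-aa 0 of 49 members were called at 30 min against 0 min, where 0.395% of all genes were. An unadjusted p under 0.05 in limma was found for 3 of the 49 members and 460 of all 5311 genes. In Mot1-aa 11 members rose and 3 fell from 0 to 30 min, where 22.9% and 19% of all genes did. Beside the 5 members that also had a called rise in the depletion effect, these were ZIP1, DMC1, MSH5, AMA1, SPO20 and SPS19, and MND1 and SSP1 fell together with RED1.

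Between the strains before rapamycin, 0 of the 49 members were called, against 2.69% of all genes. At an unadjusted p under 0.05 in limma there were 9 of the 49 members and 776 of all 5311 genes. At 30 min 16 members were higher in Mot1-aa and 7 lower, where 24.9% and 24.3% of all genes were. The 16 included IME1, RIM4, SGA1 and SMK1, and the 7 were RED1, REC8, MND1, RIM11, SSP1, SPO1 and CDA1. Comparisons that use the same 0 min or 30 min arrays share the error of those arrays, so they are not separate evidence.

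The depletion effect was also computed separately from the arrays numbered culture 1 and those numbered culture 2. That number is also the dye, and it does not show that strains or times share a culture. The 2 sets of arrays gave the same sign in 21 of the 49 members at 10 min, 30 at 20 min and 42 at 30 min. The same count over all genes is not given here. Across the 49 genes, which are not independent of each other, the 2 sets correlated at r = 0.03 at 10 min, 0.63 at 20 min and 0.77 at 30 min. At 30 min SGA1 came to 0.91 in the culture 1 set and 0.85 in the culture 2 set. In that order RIM4 came to 0.71 and 0.93, SMK1 to 0.95 and 0.51, SPS4 to 0.70 and 0.48, and RED1 to -0.61 and -0.45.

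Of 14 genes on the array that lie beside a called member, 1 was called in the member's direction, 1 in the opposite direction and 12 were not called at 30 min. Of 89 neighbours of all members, 19 were called, beside 21.1% of all genes. XBP1, a repressor gene that lies head to head with SGA1, rose by 1.31 ± 0.25 (SE), adjusted p = 0.0054. SPO12, which lies tail to tail with SPO16, had an effect of -0.78, adjusted p = 0.00515, while SPO16 rose. The 4 pairs of adjacent members, SPO22 with HOP1, SPS1 with SPS2, SPS18 with SPS19 and DIT1 with DIT2, had no called gene, and the last 2 pairs were of opposite sign.

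Of 25 repressors and inducers, 4 rose (16%) and 1 fell (4%) at 30 min, beside 13.6% and 7.53% of all genes, and 20 were not called. RPD3 was lower, with an effect of -0.59 ± 0.11 (SE), adjusted p = 0.00444. Its partners in the Ume6 complex gave -0.24 for UME6, adjusted p = 0.153, and -0.012 for SIN3, adjusted p = 0.962. SUM1 gave -0.28, adjusted p = 0.216. RME1, the haploid repressor of IME1, rose by 0.63, adjusted p = 0.00612, as did the stress activator gene MSN4 by 0.92, adjusted p = 0.000245, the kinase gene RIM15 by 0.79, adjusted p = 0.000681, and ITC1, of the Isw2 remodeller, by 0.65, adjusted p = 0.00454. The median of these 25 genes was 0.034.

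Of 42 further meiosis and spore genes on the array, 3 rose (7.14%), 3 fell (7.14%) and 36 were not called at 30 min, with a median of 0.063, beside rises in 13.6% and falls in 7.53% of all genes. The cyclin genes CLB6 and CLB1, which also act in the mitotic cycle, rose by 0.69, adjusted p = 0.00337, and 0.60, adjusted p = 0.0111, and DON1, of the spore membrane's leading edge, rose by 0.57, adjusted p = 0.00681. SPO12, a cell cycle exit gene, SPO71 and YSW1, both of the spore membrane, fell, with effects of -0.78, -0.53 and -0.40 and adjusted p of 0.00515, 0.044 and 0.049.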

How the data were processed

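Array scans were deposited as spot intensity per channel with local background, per the file headers; the authors' deposited table holds log2 ratios of Cy5 over Cy3, whose scale and direction were read from the scans. Channel dyes came from the labels. With limma 3.58.1 in R 4.3.3, intensities were background-corrected (normexp, offset 50), normalised by loess within arrays, turned to log2(sample/reference), and averaged over 2 spots per probe and over probes of a gene. One model held 8 groups and a term for dye, which is also the culture number, with 7 residual degrees of freedom over 16 arrays. Of 5326 named probes, 5266 carried a current symbol, 58 were matched by synonym or locus tag and 2 were kept as given; 1062 unnamed probes were left out. The detection level was the 99th percentile of 904 negative spots. With 2 arrays a group, precision is limited by array number. The members and the other gene lists were chosen with earlier results of these data known. Members called in the depletion effect and the regulators were given in full, others by class; DMC1, MSH5, ZIP1, SPO11, REC8, SSP1, SPS19, the DIT and CDA genes and AMA1 were named after their values were seen. Probe sequences and genome coordinates were not used here. Simulated data were used to check the fit.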

Additional observations from a re-analysis of the deposited data

Results flagged for a closer look

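For 7 genes the change under rapamycin differed between the strains by the test of that difference in the fit over all genes. At 20 min the difference, Mot1-aa minus WT-aa, was 0.75 in SGA1, 0.60 in SMK1, 0.48 in SPS4 and -0.44 in RED1 on the log2 scale. At 30 min it was 0.88 in SGA1, 0.82 in RIM4, 0.73 in SMK1, 0.59 in SPS4, 0.33 in SPO16, 0.30 in REC104 and -0.53 in RED1. The median signal over background of these genes ran from 2.86 times in SPS4 to 6.67 times in SPO16. The part of the dim Mot1-aa 0 min array of culture 1 is given by the values without it: 0.89 in SGA1, 0.91 in RIM4, 0.63 in SMK1, 0.52 in SPS4, 0.23 in SPO16, 0.29 in REC104 and -0.48 in RED1 at 30 min.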

How the results depend on the processing

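The 7 calls at 30 min became 4 under median centring (3 rises and RED1's fall) and 0 under external control scaling. The external control spots were only 1.15 to 1.50 times background, and that scaling moved the median of all genes to 0.27 at 30 min and 0.54 at 20 min. The 4 calls at 20 min became 0 with median centring, 0 with external control scaling and 7 with array weights. Without the dye and culture term (no replicate block) they became 1 at 20 min and 5 at 30 min; 25 of 28 pairs of same-numbered arrays, not every one, correlated over 0.1 in their deviations (median r 0.62, range -0.36 to 0.78), and since the number is also the dye, a shared culture and a shared dye cannot be told apart. The strain difference at 0 min went from 0 calls to 3 with median centring and 1 with array weights. Of all genes, 2.69%, 1.85% and 2.24% were called in these 3 settings. The 23 calls between strains at 30 min became 6 with external control scaling and 13 to 25 with 1 array left out (13 without the 30 min array of culture 1 of either strain), and the 14 calls within Mot1-aa became 9 with median centring, 6 with external control scaling and 7 to 21 with 1 array left out (7 without the Mot1-aa 0 or 30 min array of culture 1, 21 without either Mot1-aa 10 min array). Calls among the members at 10 min and within WT-aa at 30 min stayed at 0 in all settings run. The 30 min effects of SGA1, RIM4, SMK1 and RED1 held in 24 of 25 settings and SPS4's in 23, lost with external control scaling and, for SPS4, median centring; SPO16 held in 6 and REC104 in 8. Leaving out 1 array, which leaves 1 array in its group, lowered the member calls in some fits and raised them in others. The most came without either Mot1-aa 10 min array, where calls over all genes rose too, so such counts alone are no result about the members. Calls over all genes also moved with the other settings. At 30 min they were 21.1% of all genes, and 13.2% under median centring and 0.0753% under external control scaling. At 20 min they were 8.02%, and 4.59% with median centring, 0% with external control scaling and 13.3% with array weights. The cause of these shifts was not tested. The files give no slide or scan batch, so a block for it was not run.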
